A study of Mus musculus with 629 samples.

Results

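The Notch genes followed here were the 4 Notch receptors (Notch1, Notch2, Notch3 and Notch4), the nuclear effector Rbpj, the target gene Hes1, the trafficking adaptor Numb, and the gamma-secretase subunits Ncstn (nicastrin) and Psen2 (presenilin 2). They were taken by symbol as 9 of the 53546 genes in the deposited table, and all 9 were present. The question was which of them brain macrophages and microglia contain as RNA, and whether any of them went with the Notch3 genotype. The cells came from the brains of adult C57BL/6 mice that all carried the reporter SM22-Cre;Rosa26-stop-tdTomato, in which Cre is driven by the promoter of SM22, a gene of smooth muscle. Notch3 knockout (KO), heterozygous (Het) and wild-type (WT) cells were sorted into 384-well plates, 1 cell to a well, and sequenced by SMART-seq2, a full-length method without molecular identifiers. The labels gave 119 KO, 70 Het and 211 WT macrophages, 78 KO, 58 Het and 79 WT microglia, and 14 cells of a type named only 7. They did not describe the knockout allele, did not say which colour was gated, and named no animal.

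Notch receptors are single-pass membrane proteins that are cut first by furin on their way to the surface, then, once a ligand of the Delta or Jagged family on a neighbouring cell pulls on them, by an ADAM sheddase, and last within the membrane by gamma-secretase. Gamma-secretase is a complex of a presenilin, which holds the active site, with nicastrin, an Aph1 protein and Pen-2, and it cuts many other membrane proteins besides Notch. The released intracellular domain joins RBPJ and a Mastermind protein on DNA and switches on genes such as Hes1, while NUMB sends Notch receptors to endosomes and so holds signalling down. In the brain's vessels NOTCH3 is best known from mural cells, the smooth muscle cells and pericytes, and NOTCH4 and NOTCH1 from endothelium.

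Because no animal was named, a genotype within a cell type was 1 sample only, and the genotypes were compared without a test. Cells of the same type and genotype that were sorted onto 1 plate form a pool. There were 8 pools in each cell type, 2 of KO (plates 060s and 524s), 3 of Het (056s, 524s and 529s) and 3 of WT (059s, 529s and 530s), and the spread between pools is the only measure of repeatability given here. Levels are CPM, the usual unit that scales counts to a common library total, of the summed gene counts without Rn18s, the 18S ribosomal RNA, which took between 16.4% and 56.4% of the counts of a pool. Depth without Rn18s had a median of 213524 counts per cell and ran from 1488 to 2107020. Plate 056s gave 33892157 of the 39050977 counts of Het macrophages and 16108054 of the 25118884 counts of Het microglia, so sums over Het cells mostly describe that plate. Intervals are exact Poisson intervals on summed counts or exact (Clopper-Pearson) intervals on shares of cells, at 95%. Both cover counting error only, since reads without identifiers can be PCR copies of 1 molecule.

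The cell type labels were checked against marker genes. A list of 12 perivascular macrophage markers, among them Mrc1 and Cd163, summed to between 25626 and 38203 CPM in the macrophage pools and between 8368 and 17841 CPM in the microglia pools. A list of 12 microglia markers, among them Tmem119 and P2ry12, summed to between 3901 and 11349 CPM in the macrophage pools and between 30896 and 59469 CPM in the microglia pools. Each label therefore had the higher sum of its own markers in every pool, and each type also held RNA of the other type's markers. In macrophages most of the microglia list's 8668 CPM came from Fcrls (4571 CPM) and Cx3cr1 (2044 CPM). Tmem119 stood at 73.1 CPM there against 5884 CPM in microglia, whereas Mrc1 stood at 3421 CPM in microglia against 7836 CPM in macrophages. Of 10 mural markers, 9 were under 1 CPM in either cell type, and the whole list summed to 2.30 CPM in macrophages against 17.7 CPM in microglia, where the KO pool of plate 524s held 102.9 CPM and the other 7 pools between 0.312 and 8.09 CPM. Acta2, Myh11 and Pdgfrb were among those under 1 CPM, so the sorted cells read here showed almost none of the RNA of the cells in which SM22 and Notch3 are usually found.

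Of the 9 genes, 6 were expressed in macrophages and the same 6 in microglia: Notch1, Notch2, Rbpj, Numb, Ncstn and Psen2. Expressed means at least 20 CPM and a count in at least 25% of cells, both in the same genotype, and by that rule 20.5% of the genes with any count were expressed in macrophages and 26% in microglia. Notch3, Notch4 and Hes1 were not expressed in either cell type. In macrophages the calls of the rarer genes depended on depth and detection: Psen2 was not expressed once cells were thinned to 1 depth, and neither Numb nor Psen2 was when a cell needed 5 counts to count as detected. In microglia Notch4 joined the 6 with the floors at 5 CPM and 10% of cells.

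**Figure D1:**
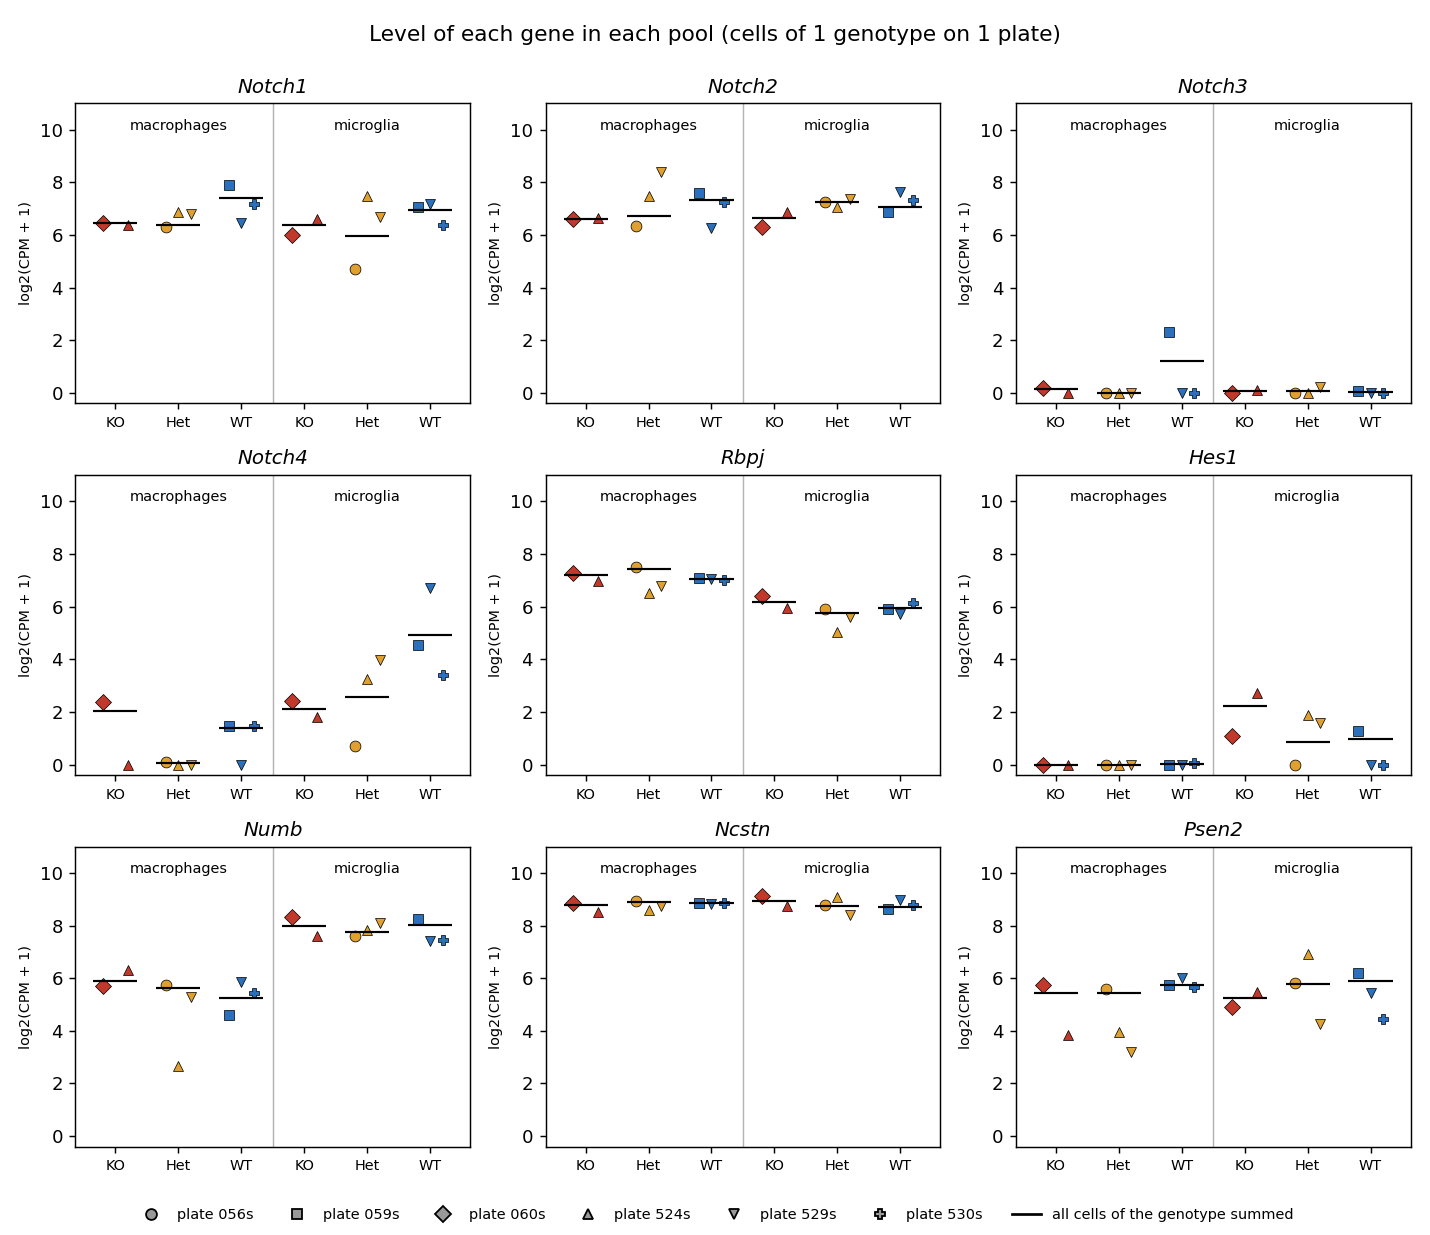
Level of each of the 9 genes in every pool, on a log2(CPM + 1) axis, with KO, Het and WT macrophages to the left and KO, Het and WT microglia to the right. Points are pools, marker shapes are plates, and bars are all cells of the genotype summed. Notch1, Notch2, Rbpj, Numb, Ncstn and Psen2 had counts in every pool, Rbpj lay higher in macrophages, Numb lay higher in microglia, and Notch3 and Hes1 sat at or near 0.

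Notch3, the gene that differs between the genotypes, was almost absent in all 3 of them. In macrophages it had 2 counts in 1 of 119 KO cells, 0 counts in 70 Het cells and 77 counts in 1 of 211 WT cells. In microglia it had 1 count in 1 cell of each genotype. A count of 0 was given the limit that 3 counts would set, which for the 70 Het macrophages is 4.29% of cells with a count and 0.0768 CPM, while the exact 95% upper bounds are 5.13% and 0.0945 CPM. All 77 WT counts came from a single cell on plate 059s, which had 0 counts of the 10 mural and the 10 endothelial markers. That cell had 150.1 CPM over 8 astrocyte markers. Macrophages without Notch3 had a median of 10.0 CPM and a highest value of 2562 CPM over those 8. The part of those markers in the Notch3 value was not tested. Without that plate, WT macrophages had no Notch3 count. The WT level was 1.29 CPM in macrophages against 0.0361 CPM in microglia. WT cells thus held too little Notch3 RNA for a loss in KO cells to be seen, and Notch3 could not check the genotype labels.

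Notch1, a receptor found in many cell types, was detected in 53.5% of macrophages and 66.5% of microglia. In macrophages it stood at 88.0 and 82.1 CPM in the KO pools, at 77.9, 117 and 109 CPM in the Het pools, and at 241, 86.5 and 143 CPM in the WT pools, each in the plate order given above. The WT pool of plate 059s was the highest, the WT pool of plate 529s lay among the KO and Het pools, and the genotypes overlapped. In microglia it stood at 63.2 and 95.9 CPM in the KO pools, at 24.8, 179 and 101 CPM in the Het pools, and at 132, 145 and 82.5 CPM in the WT pools. The lowest and the highest microglia pool were both Het, so the genotypes overlapped there too.

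Summed over all cells, Notch1 was 86.5 CPM (82.2 to 90.9) in KO macrophages, 82.5 CPM (79.6 to 85.4) in Het macrophages and 169.9 CPM (167 to 173) in WT macrophages. In microglia the sums were 81.6 CPM (77.6 to 85.6) in KO, 61.2 CPM (58.2 to 64.3) in Het and 124 CPM (120 to 128) in WT. KO was thus lower than WT by 0.97 on the log2 scale in macrophages and by 0.60 in microglia. Both signs held in each of the 20 other settings, with log2 ratios of -1.26 to -0.65 in macrophages and of -0.96 to -0.36 in microglia. KO and WT shared no plate, so none of these settings compared them within a plate, and plate and genotype cannot be told apart. In neither cell type did the KO pools all lie below the WT pools. Het was 2.05-fold below WT in macrophages and 2.01-fold below WT in microglia, again with overlapping pools, and the log2 ratio of Het over WT was 0.33 in macrophages of plate 529s alone and 0.03 in microglia without plate 056s. Single cells carried much of the signal: 1 Het macrophage held 1553 of the 3220 Notch1 counts of its genotype, which is 48.2%.

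Notch2, the other expressed receptor, was detected in 60.0% of macrophages and 70.2% of microglia. In macrophages it stood at 95.6 and 99.9 CPM in the KO pools, at 80.5, 177 and 338 CPM in the Het pools, and at 191, 76.0 and 154 CPM in the WT pools. The KO pools lay close together and inside the range of both the Het and the WT pools. Microglia had Notch2 at 77.1 and 116.2 CPM in the KO pools, at 149.9, 133 and 163 CPM in the Het pools, and at 115.5, 196 and 161 CPM in the WT pools. Both KO pools were below all 3 Het pools and overlapped the WT pools only because plate 059s of WT lay just under plate 524s of KO.

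Summed over all cells, Notch2 was 96.7 CPM (92.2 to 101.4) in KO macrophages, 104 CPM (101.2 to 108) in Het macrophages and 159 CPM (156 to 162) in WT macrophages. In microglia it was 99.1 CPM (94.8 to 104) in KO, 151 CPM (146 to 156) in Het and 134 CPM (129.7 to 138) in WT. The KO over WT log2 ratio was -0.71 in macrophages and -0.43 in microglia, and it stayed negative in each of the 20 other settings in either cell type. None of those settings compared KO and WT within a plate, since they shared none. The Het over WT ratio of macrophages, -0.60, had the other sign without plate 056s (0.71).

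Notch4, a receptor best known from endothelium, was not expressed by the rule but was not evenly rare. It had 154 counts in 6 of 400 macrophages and 1001 counts in 30 of 215 microglia, or 1.32 CPM and 13.8 CPM. In microglia it stood at 4.35 and 2.50 CPM in the KO pools, at 0.621, 8.47 and 14.5 CPM in the Het pools, and at 22.4, 104 and 9.65 CPM in the WT pools. Both KO pools lay below all 3 WT pools and inside the range of the Het pools. KO pools clear of WT pools, in either direction, were found for 16.9% of all genes expressed in microglia, a set without Notch4. The single count-bearing cell of WT plate 530s and the top cell of WT plate 529s held all and 62.7% of their pool's counts.

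The share of microglia with a Notch4 count was 8.97% (3.68 to 17.6) in KO, 20.7% (11.2 to 33.4) in Het and 13.9% (7.16 to 23.5) in WT, with intervals that overlapped. The 22 microglia with at least 5 Notch4 counts had a median sum of 41.6 CPM over the 10 endothelial markers. Of the 22, 7 had no endothelial marker count at all. Microglia without a Notch4 count had a median of 0 CPM and a highest value of 466 CPM. Over all microglia that list summed to 51.1 CPM, of which Pecam1 alone was 49.0 CPM, while Cldn5, Cdh5 and 6 others were under 1 CPM. By pool it ran from 60.0 to 88.2 CPM in KO, from 32.7 to 80.5 CPM in Het and from 0.312 to 69.2 CPM in WT microglia, and the pool with the most Notch4, WT on plate 529s, had the least. The part of endothelial RNA in the Notch4 values was not tested. All 4 macrophages with at least 5 Notch4 counts had 0 counts of the endothelial and mural markers. The 8 astrocyte markers had a median sum of 204 CPM in those 4 macrophages, 1 of which had none. Macrophages without a Notch4 count had a median of 9.76 CPM and a highest value of 2562 CPM. In the 22 microglia the median was 199 CPM, and 1 of them had none. Microglia without a Notch4 count had a median of 78.3 CPM and a highest value of 2482 CPM. The part of the astrocyte markers in the Notch4 values was not tested.

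Levels of different genes can be set beside each other only per length. By the exons of all transcripts together in GENCODE M21, Notch2 stood at 12.2 CPM per kb and Notch1 at 8.98 CPM per kb in macrophages, and at 12.1 and 6.37 CPM per kb in microglia, with Notch4 at 0.164 and 1.71 CPM per kb and Notch3 at 0.0840 and 0.00510 CPM per kb. On this scale Notch2 was above Notch1 in 8 of 8 macrophage pools and 7 of 8 microglia pools. By the longest transcript instead, which is 9.488 kb for Notch1 and 10.5 kb for Notch2, Notch2 was above Notch1 in 3 of 8 macrophage pools and 6 of 8 microglia pools. The order of these neighbours therefore depended on the length used in macrophages, whereas over all cells of a type both stood above Notch4 and Notch3 on either scale. In the single pool of WT microglia on plate 529s, however, Notch4 (12.9 CPM per kb of exons) was above Notch1 (10.2 CPM per kb).

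Any of the 4 receptors was detected in 79.5% of macrophages (75.2 to 83.4) and 89.3% of microglia (84.4 to 93.1). Because the cells differ in depth, each cell was also thinned to 66287 counts without Rn18s, which left out 47 macrophages and 15 microglia that were shallower. The shares then became 71.4% of 353 macrophages and 82.0% of 200 microglia. After thinning, Notch1 was detected in 43.6% of macrophages and 59.5% of microglia, and Notch2 in 47.9% and 59.5%. Both receptors were found in 21.0% of thinned macrophages and 38.0% of thinned microglia, beside 20.9% and 35.4% that the product of their separate shares gives. The receptors thus shared cells about as often as that product.

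**Figure D2:**
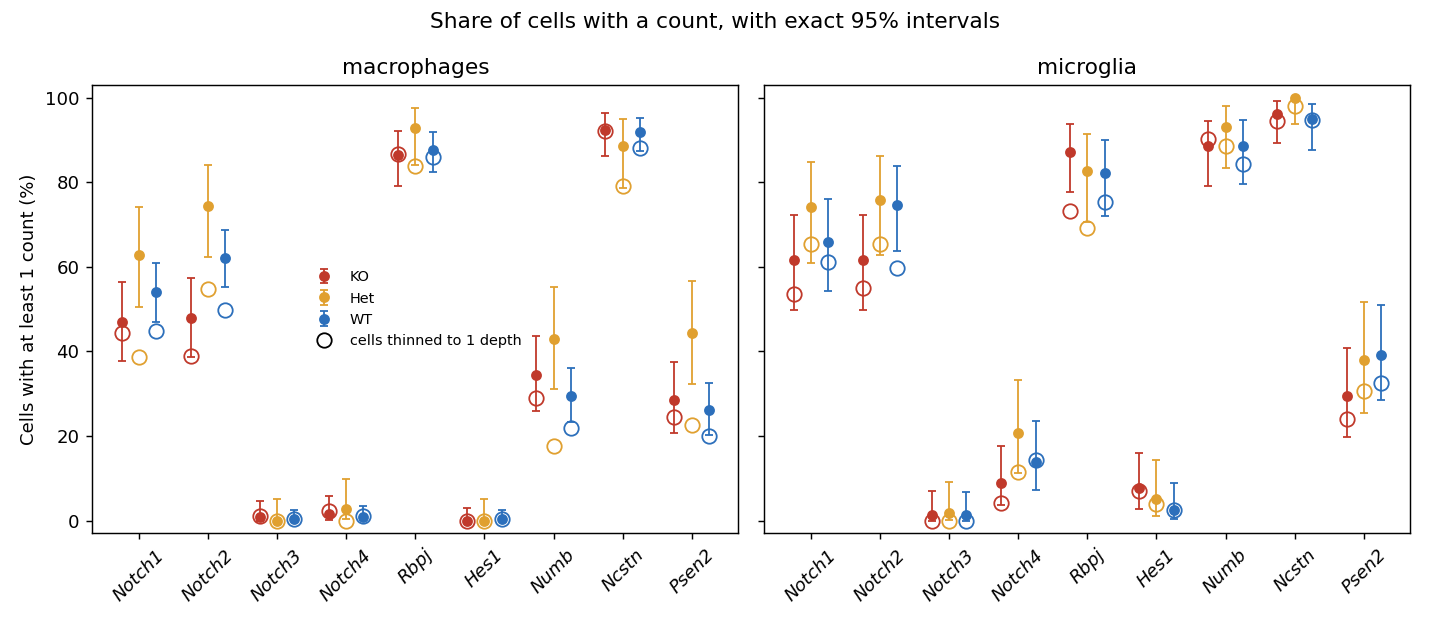
Share of cells with at least 1 count of each gene (percent), in macrophages (left) and microglia (right), coloured by genotype, with KO left of Het and WT. Filled points carry exact 95% intervals and open circles are the shares after thinning every cell to 1 depth. Ncstn and Rbpj were found in most cells of both types, Numb in most microglia but a minority of macrophages, and Notch3 and Hes1 in very few cells.

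Rbpj encodes the DNA-binding protein that all 4 receptors signal through and that represses targets when no receptor is active. It stood at 156 and 125 CPM in the KO pools of macrophages, at 182, 90.7 and 109 CPM in the Het pools, and at 135, 130.1 and 128 CPM in the WT pools. In microglia it stood at 84.4 and 60.3 CPM in the KO pools, at 59.3, 32.2 and 47.9 CPM in the Het pools, and at 58.5, 52.0 and 70.3 CPM in the WT pools. Every macrophage pool was above every microglia pool, the nearest being 90.7 CPM in Het macrophages of plate 524s and 84.4 CPM in KO microglia of plate 060s.

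Summed, Rbpj was 147 CPM (145 to 149) in macrophages and 60.7 CPM (58.9 to 62.5) in microglia, a 2.40-fold difference (log2 1.26). The ratio within a pool pair of the same genotype and plate ran from 1.81-fold to 3.03-fold and was above 1 in 8 of 8. It was also higher in macrophages of each genotype, by log2 1.05 in KO, 1.66 in Het and 1.11 in WT. The shares of cells were closer, 88.3% of macrophages and 84.2% of microglia, and 85.8% and 73.0% after thinning. The pseudogenes Rbpj-ps1 and Rbpj-ps3, which resemble Rbpj, had 0.550 CPM or less in either cell type. KO microglia lay above the Het pools (70.9 and 53.3 CPM) but overlapped the WT pools (60.1 CPM).

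Numb showed the opposite order between the cell types. It stood at 51.4 and 78.1 CPM in the KO pools of macrophages, at 53.0, 5.26 and 37.9 CPM in the Het pools, and at 23.5, 57.4 and 42.0 CPM in the WT pools. Microglia had Numb at 324 and 196 CPM in the KO pools, at 195, 226 and 275 CPM in the Het pools, and at 299.6, 169 and 176 CPM in the WT pools. The highest macrophage pool was below the lowest microglia pool, and within each cell type the 3 genotypes overlapped.

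Summed, Numb was 44.4 CPM (43.2 to 45.7) in macrophages and 243 CPM (239.6 to 247) in microglia, 5.37-fold higher in microglia (log2 -2.43 for macrophages over microglia). The log2 ratio was negative in 8 of 8 pool pairs, from -5.18 to -1.32, and was -2.09 in KO, -2.13 in Het and -2.77 in WT. The share of cells went the same way, with 33.3% of macrophages and 89.8% of microglia, or 22.9% and 87.5% after thinning. The widest gap, on plate 524s in Het, rested on 13 counts in 16 macrophages.

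Rbpj and Numb were the 2 of the 6 expressed genes apart between the cell types, that is at least 2-fold different with the same direction in 8 of 8 pool pairs. Among all 6988 genes expressed in either cell type, 6.11% were apart by that rule, 1.69% higher and 4.42% lower in macrophages. Microglia pools held 8368 CPM or more of macrophage markers and macrophage pools 3901 CPM or more of microglia markers, as given above, and the part of the other type's RNA in these ratios was not tested. Notch1, Notch2, Ncstn and Psen2 changed direction between pool pairs. Notch4, which is under the floor, was lower in macrophages in 8 of 8 pool pairs.

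**Figure D3:**
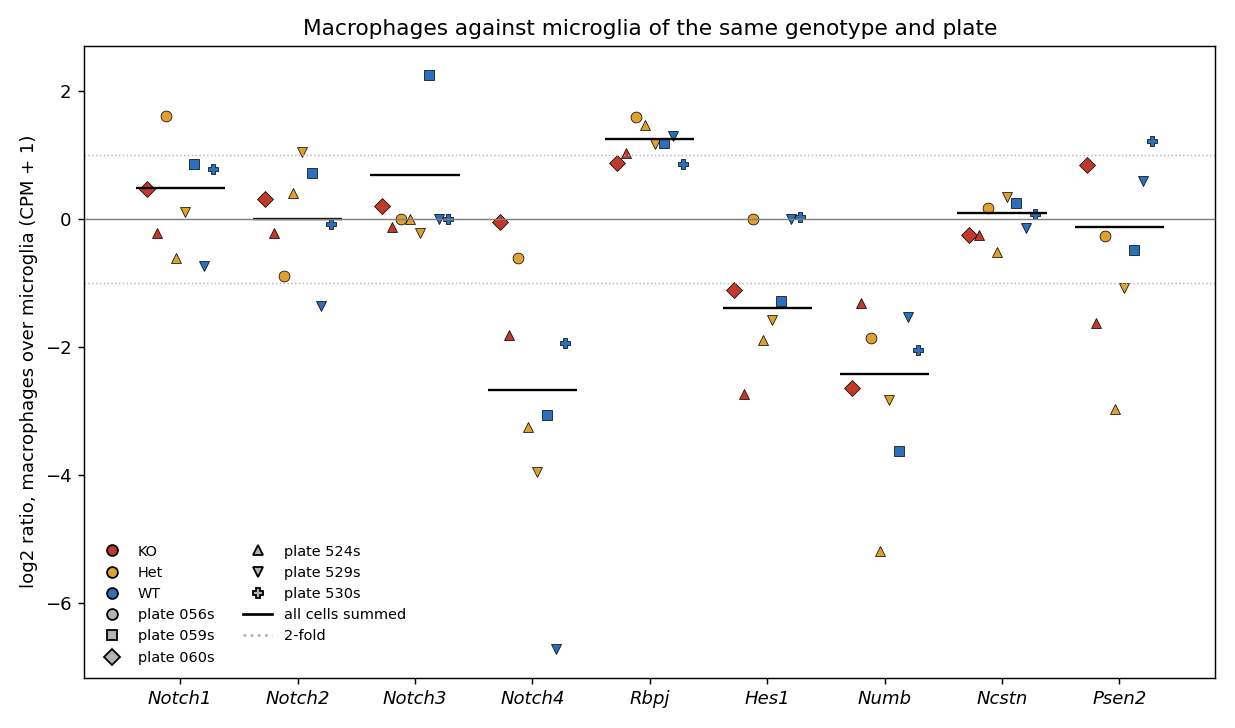
Log2 ratio of macrophages over microglia on CPM + 1 for each of the 9 genes, within pools of the same genotype and plate (points coloured by genotype, KO left of Het and WT, shaped by plate), with all cells summed as bars and 2-fold as dotted lines. Rbpj lay above 0 and Numb below 0 in 8 of 8 pairs, and the ratios of Notch3, Notch4 and Hes1 rest on few counts and depend on the added 1 CPM.

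For these genes that differed between the cell types, the 250 bases upstream of annotated starts are shown, from RefSeq on GRCm38.p6, because they are the stretch in which a reader would look first for sites of PU.1 (Spi1), the master regulator of macrophages and microglia, and of RBPJ itself. The table held windows for 8 of the 9 genes, 12 windows in all. Rbpj had 2 windows that overlap and Numb had 3. Shown are Rbpj window 2, chr5:53590236-53590485 on the plus strand, and Numb windows 1 and 3, chr12:83921935-83922184 and chr12:83842359-83842608 on the minus strand, each written from 5′ to 3′ toward the start. Capitals mark GAGGAA, the core of the PU.1 motif, on either strand, where TTCCTC is the same site read from the other strand.
Rbpj window 2: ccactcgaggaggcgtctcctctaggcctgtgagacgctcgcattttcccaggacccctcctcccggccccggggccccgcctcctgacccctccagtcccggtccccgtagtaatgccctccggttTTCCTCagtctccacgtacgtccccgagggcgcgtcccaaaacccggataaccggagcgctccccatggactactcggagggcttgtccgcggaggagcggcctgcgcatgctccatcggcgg
Numb window 1: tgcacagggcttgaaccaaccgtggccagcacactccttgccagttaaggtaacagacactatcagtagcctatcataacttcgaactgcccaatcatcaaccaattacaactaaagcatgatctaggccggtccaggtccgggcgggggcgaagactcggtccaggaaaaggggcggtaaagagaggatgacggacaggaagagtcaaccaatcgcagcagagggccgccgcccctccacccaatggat
Numb window 3: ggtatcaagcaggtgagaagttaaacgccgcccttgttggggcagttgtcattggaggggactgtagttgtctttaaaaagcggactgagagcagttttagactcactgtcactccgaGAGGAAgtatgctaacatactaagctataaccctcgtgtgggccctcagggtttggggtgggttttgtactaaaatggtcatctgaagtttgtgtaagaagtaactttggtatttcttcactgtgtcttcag

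GAGGAA was found once in Rbpj window 2 and once in Numb window 3, where it is part of the longer match GAGGAAGT. It was not found in Numb window 1, nor in the windows not shown, Rbpj window 1 and Numb window 2. Numb window 3 lies downstream of the start that follows Numb window 1, before a later annotated start. The match in Rbpj window 2 likewise lies downstream of the start that follows Rbpj window 1. Outside these windows it was found in the Notch1 window and in 1 of 2 Psen2 windows. GTGGGAA, the core of the RBPJ motif, was found in 1 Psen2 window. Of 32851 such windows of 250 bases in the genome table, 23.3% held GAGGAA on either strand, 2.44% held GAGGAAGT, which contains it, and 5.42% held GTGGGAA. These are matches of letters only, and which start a cell used was not measured.

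Ncstn, the gamma-secretase subunit that admits substrates, was the highest of the 9 genes per length in both cell types, at 117 CPM per kb of exons in macrophages and 109.8 CPM per kb in microglia. It stood at 469 and 360.3 CPM in the KO pools of macrophages, at 489.7, 381 and 423 CPM in the Het pools, and at 467, 449 and 464 CPM in the WT pools. Microglia had Ncstn at 554 and 428 CPM in the KO pools, at 436, 548 and 333 CPM in the Het pools, and at 393, 496 and 439 CPM in the WT pools. The genotypes overlapped in both cell types, and Ncstn was the most even of the expressed genes, with 91.5% of macrophages and 96.7% of microglia having a count. Other genes share exon sequence with several of the 9 in GENCODE M21: 9.76% of the Notch1 exons, 6.03% of Notch3, 5.02% of Notch2, 4.91% of Ncstn (with Copa) and 4.24% of Numb. Reads there cannot be assigned to 1 gene without knowing the strand used in counting.

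Psen2, a catalytic subunit, was much rarer, with a count in 30.0% of macrophages and 35.3% of microglia. In macrophages it stood at 53.1 and 13.2 CPM in the KO pools, at 46.6, 14.6 and 8.18 CPM in the Het pools, and at 51.9, 63.8 and 50.4 CPM in the WT pools. All 3 Het pools were below all 3 WT pools, by 0.30 on the log2 scale when summed, and the KO pools lay across both. In microglia it stood at 29.0 and 43.1 CPM in the KO pools, at 56.0, 121 and 18.3 CPM in the Het pools, and at 72.8, 42.1 and 20.9 CPM in the WT pools, which overlapped.

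Hes1, the usual first target of Notch signalling, had 1 count in 400 macrophages and 120 counts in 11 of 215 microglia. No Hes1 count was seen in 119 KO or 70 Het macrophages, for which the limit set by 3 counts is 2.52% and 4.29% of cells and 0.169 and 0.0768 CPM, and the single count came from a WT cell. In microglia it had 73 counts in 6 of 78 KO cells, 20 counts in 3 of 58 Het cells and 27 counts in 2 of 79 WT cells, or 7.69% (2.88 to 16.0), 5.17% (1.08 to 14.4) and 2.53% (0.308 to 8.85) of cells. These intervals overlapped, and 1 cell held 47.9% of the KO counts. Among the 7 microglia with at least 5 counts, the summed level of 8 astrocyte markers had a median of 145 CPM and ran from 2.84 to 860 CPM. Microglia without a Hes1 count had a median of 82.3 CPM and a highest value of 3291 CPM. The part of these markers in the Hes1 counts was not tested.

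None of the 6 expressed genes was apart in KO in macrophages (background 0.948% of 5484 genes) or in microglia (background 0.794% of 6797 genes). Apart means expressed, at least 2-fold above or below both Het and WT, and no overlap between the KO pools and the other pools. Nor was any of the 6 apart in Het against WT, where 2.55% of genes were in macrophages and 3.05% in microglia. At a few percent of genes called, no call among 6 genes is what the background alone would give, so these counts set no limit on smaller differences.

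With the 2-fold limit dropped, 0 of the 6 genes had KO pools clear of all Het and WT pools, against 5.85% of all expressed genes in macrophages and 4.19% in microglia. Against Het alone, 2 of the 6 had KO microglia pools that did not overlap, Notch2 lower (log2 -0.60) and Rbpj higher (log2 0.40), beside 16.2% of all genes, 6.64% lower and 9.53% higher. In macrophages none of the 6 had KO pools clear of Het pools, beside 17.3% of all genes. Against WT alone there were 0 of 6, beside 22.2% of all genes in macrophages and 16.9% in microglia. Psen2 was the 1 of 6 genes with Het macrophage pools clear of WT pools, beside 10.1% of all genes, of which the lower ones made 6.27%. In microglia 0 of the 6 had Het pools clear of WT pools, beside 8.14% of all genes. The median log2 ratio of KO over WT across the 6 genes was -0.18 in macrophages and -0.24 in microglia, beside -0.06 and -0.04 across all expressed genes.

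Of the 46 genotype ratios that could be formed for the 9 genes, 17 kept their sign in every other setting and 29 had the other sign in at least 1. On plates 524s and 529s, which each held 2 genotypes, genotype went with sex: Xist stood at 579 CPM in KO and 0.809 CPM in Het macrophages of plate 524s, and at 825 CPM in Het and 1.19 CPM in WT macrophages of plate 529s. On those plates genotype and sex cannot be told apart. The other 4 plates held 1 genotype each, so plate and genotype cannot be told apart there.

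**Figure D4:**
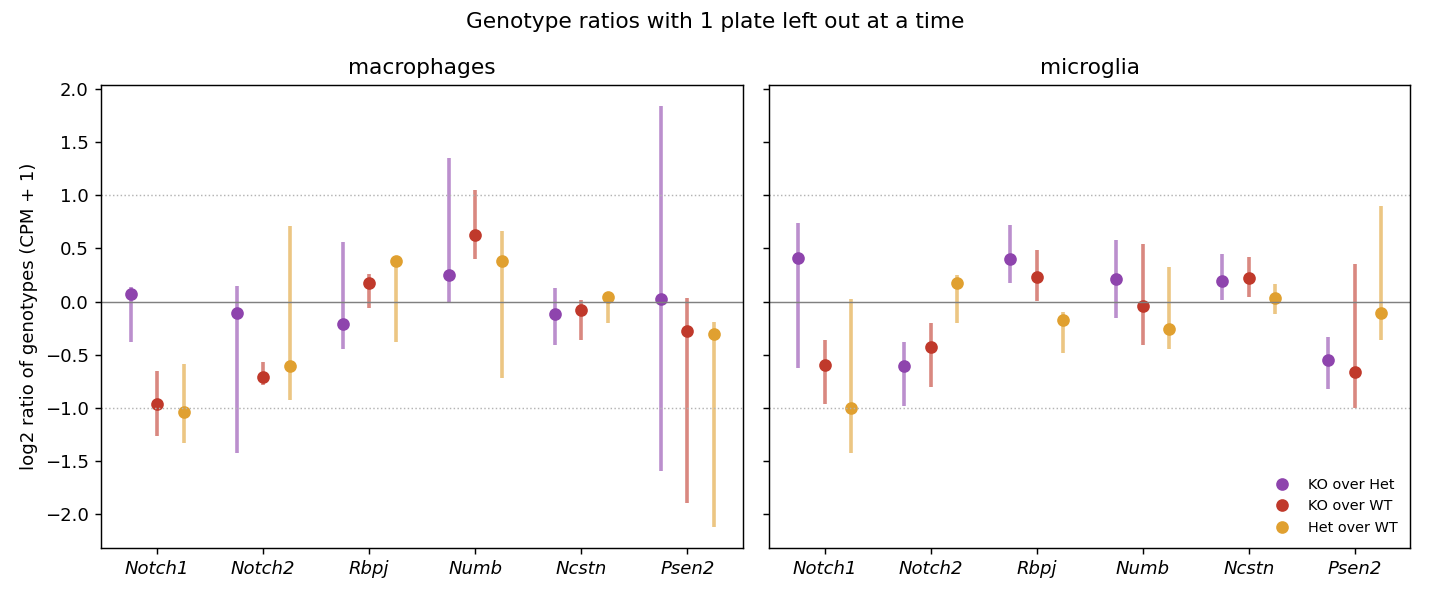
Log2 ratios between genotypes on CPM + 1 for the 6 expressed genes, in macrophages (left) and microglia (right). Points are the ratios over all plates, vertical lines span the ratios with 1 plate left out at a time, and dotted lines mark 2-fold. KO over WT stayed below 0 for Notch1 and Notch2 in both cell types, while the Psen2 lines in macrophages reached from -1.90 to 0.03 for KO over WT and from -1.59 to 1.84 for KO over Het. KO and WT shared no plate.

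Across a list of 61 Notch pathway genes that includes the 9, 30 were expressed in macrophages and 38 in microglia. None of the 7 ligands was expressed in either cell type. The highest ligand per length was Jag1 in macrophages, at 2.16 CPM with a count in 3.00% of cells, and Jag2 in microglia, at 16.0 CPM with a count in 9.30% of cells. Both sheddases were expressed, Adam10 at 114 CPM in macrophages against 170.0 CPM in microglia, and Adam17 at 214 and 273 CPM. Among the gamma-secretase genes, Psen2, Ncstn, Aph1b and Aph1c were expressed in both cell types, whereas Aph1a and Psenen, which encodes Pen-2, stayed under 20 CPM. Among the 7 genes listed as targets, Hes1 and all others but Hes6 were not expressed. Hes6, a relative of Hes1 that antagonises it in the nervous system, was 56.0 CPM in macrophages against 45.7 CPM in microglia. Whether Notch signalling drives Hes6 in these cells was not tested.

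Besides Rbpj and Numb, 2 of the other 32 expressed genes of the list were apart between the cell types, which is 6.25% beside the 6.11% of all genes given above, and both were lower in macrophages, as 4.42% of all genes were. Mfng, the Manic Fringe enzyme that adds sugar to Notch receptors, was 69.4 CPM in macrophages against 199 CPM in microglia. Dtx4, an E3 ubiquitin ligase of the Deltex family, was 18.1 CPM in macrophages against 99.4 CPM in microglia. No gene of the list was apart in KO in either cell type, beside the 0.948% and 0.794% given above. Without the 2-fold limit, the KO pools of Furin, the protease of the first cut, lay below all other pools in macrophages. Its levels were 41.9 CPM in KO, 74.3 CPM in Het and 51.3 CPM in WT. KO pools clear of all other pools, in either direction, were found for 5.85% of all genes expressed in macrophages.

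In Het against WT microglia, 2 of 38 were apart, beside 3.05% of all expressed genes. Aph1b was lower (3.94 CPM in Het and 16.6 CPM in WT). Both of these Aph1b levels are under the floor of 20 CPM, which Aph1b passed only in KO microglia (28.2 CPM). Maml3, a Mastermind co-activator, was higher (62.6 CPM in Het and 22.3 CPM in WT). The median log2 ratio of the whole list is given here beside that of all expressed genes. In macrophages it was -0.08 beside -0.06 for KO over WT, -0.16 beside -0.07 for KO over Het, and -0.03 beside 0.01 for Het over WT. In microglia it was 0.08 beside -0.04 for KO over WT, 0.18 beside 0.01 for KO over Het, and -0.14 beside -0.04 for Het over WT.

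To see which genes ran most like the expressed receptors, Pearson's r was taken over the log2 levels of the 16 pools of both cell types, for 6818 genes. For Notch1 the 3 highest were Ptms (0.84), Pold2 (0.82) and Usb1 (0.79), and for Notch2 they were Nae1 (0.76), Angel1 (0.73) and Gne (0.71). The r between Notch1 and Notch2 was 0.32, and between Notch1 and Rbpj -0.03. These are descriptions of 16 pools that share plates and depth, and the highest of so many values are high by selection.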

How the data were processed

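The deposited table held whole-number counts per gene and cell, not normalized by the authors, for 53546 genes and 92 ERCC spike-ins. STAR is named in the submitters' processing notes, without a version. The build, the annotation, the counting program and strand setting are not given in the sources used here. Columns were matched to cells by name, and no 2 columns were identical. ERCC (1.22% of counts) and Rn18s (40.4% of gene counts) were left out of the totals. Rn18s varied with the plate, and an alternative kept it.

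Counts were summed per genotype, plate and cell type in Python 3.11.15 with pandas 2.3.3, numpy 2.4.6 and scipy 1.17.1, scaled to CPM, and compared as ratios of CPM + 1. Pools had at least 10 cells. Lengths and overlapping exons came from GENCODE M21. The genes named outside the 9 were those of the pathway list that met a rule, and the 3 most like each receptor. Alternatives used TMM factors (edgeR 4.0.16) and size factors (DESeq2 1.42.0) in R 4.3.3, other floors, pseudocounts and fold limits, thinned cells, deeper cells only, and single plates. The rules were tested on simulated data in which gene levels did not differ between plates, so their behaviour under plate differences was not tested. The genes and lists were chosen with earlier results of these data known. The 14 cells of type 7 entered no comparison. A few genes of the pathway list are not reported here, and the counts include them.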

Additional observations from a re-analysis of the deposited data

Results flagged for a closer look

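Signal was also present in the 14 cells of the type that the labels name only 7, which entered no comparison. These cells held 763324 counts without Rn18s in all and a median of 25329 per cell, against 197196 in macrophages and 246554 in microglia. Notch1 stood there at 49.8 CPM (35.2 to 68.3) with a count in 6 of 14 cells, and Notch2 at 81.2 CPM (62.3 to 104) with a count in 10 of 14. Rbpj stood at 61.6 CPM (45.2 to 81.9) and Numb at 87.8 CPM (68.0 to 111). Ncstn stood at 228 CPM (195 to 264) and Psen2 at 95.6 CPM (75.0 to 120.2). Each of the 6 was above the level that a count of 0 allows in these cells, which is 3.93 CPM. With 6 KO, 4 Het and 4 WT cells, no comparison of genotypes was made, and 1 cell held 77.6% of the Numb counts and 65.8% of the Psen2 counts.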

How the results depend on the processing

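The counts of expressed genes (6 in each cell type), of genes apart in KO and of genes apart between the cell types stayed within 1.5 times of the reported counts in all settings except those named here. Within that range the genes still changed: of those expressed in macrophages, Psen2 was lost in thinned cells (5 left) and Numb and Psen2 with detection at 5 counts (4 left). With floors of 5 CPM and 10% of cells, Notch4 joined those expressed in microglia (7), and with those floors or no filter it joined those apart between the cell types (3). With no filter all 9 genes counted as expressed. On plate 524s alone, where KO was compared with Het only, 1 gene was apart in KO macrophages (Numb, log2 3.66 over Het) and 1 in KO microglia (Psen2, log2 -1.47). That Numb ratio rests on 13 counts in 16 Het macrophages, and KO and Het also differed in sex on that plate. For Het against WT macrophages, 1 gene was apart with the mean of the pools (Psen2), without a fold limit (Psen2) and without the top cell of each pool (Notch1, log2 -2.06), and 2 on plate 529s alone (Notch2, log2 2.14, and Psen2, log2 -2.82). Leaving out 1 plate at a time gave 0 to 1 there, with Psen2 apart without plate 056s and Notch1 without plate 529s. For Het against WT microglia, 2 were apart on plate 529s alone (Notch4 and Psen2). The cause of these changes was not tested. A single plate leaves 1 pool per genotype, and calls there used expression and the 2-fold limit only, without the rule on overlapping pools. Apart from the dropped fold limit, the share of all genes called was not computed in these settings, so these calls have no background. No called value changed sign. Rbpj over all settings kept a log2 ratio of macrophages over microglia of 1.10 to 1.41, and Numb of -2.73 to -2.18. No paired analysis was possible because the labels name no animals and give no replicate numbers, so pools were matched by plate only. The longest-transcript lengths and the dropped fold limit were chosen after seeing the data. Counts of 0 left only upper limits for Notch3 in Het macrophages and for Hes1 in KO and Het macrophages. Psen2 and Numb in shallow pools rested on few cells.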

Other observations

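Numb and the receptors were found in the same cells at close to the product of their separate shares, with the widest gap for Notch2 and Numb in macrophages. After thinning, Notch2 and Numb were both detected in 8.22% of 353 macrophages and 51.0% of 200 microglia, beside products of 11.0% and 52.1%. Notch1 and Numb were both detected in 10.5% of macrophages and 53.0% of microglia, beside products of 10.0% and 52.1%. Notch2 and Rbpj were both detected in 39.9% of macrophages and 45.5% of microglia, beside products of 41.1% and 43.4%. Numb was detected in 87.5% of thinned microglia and 22.9% of thinned macrophages. By those shares, most microglia with a receptor count also had a Numb count, and most macrophages with one had none.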
